A study of Homo sapiens with 6 samples.

Results

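The host genes of microRNAs and small nucleolar RNAs (snoRNAs) were examined in LOX-IMVI cells, a human melanoma cell line, after knockdown of NFKBIZ, the gene for the atypical IκB protein IκBζ. Members were all long noncoding RNA genes whose symbol begins with MIR and ends with HG, or is SNHG followed by a number. This gave 112 of the 47432 annotated genes, of which 84 were microRNA hosts and 28 were snoRNA hosts. Cells had been transduced with a lentiviral pLKO.1 vector carrying either a control hairpin (shCtrl, 3 libraries) or a hairpin against NFKBIZ (shNFKBIZ, 3 libraries), and both groups were selected with puromycin and grown in RPMI-1640 medium with fetal calf serum. The knockdown rested on a single hairpin sequence in 1 cell line, and no stimulus was named for either group. The question was whether loss of IκBζ shifted the inducible microRNA hosts and the snoRNA hosts in the same way.

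A host gene is transcribed as a long precursor from which smaller RNAs are cut. The Drosha and DGCR8 complex excises microRNA hairpins from introns or exons of the primary transcript, whereas most snoRNAs are trimmed out of introns after splicing. Many snoRNA hosts begin with a run of pyrimidines, as ribosomal protein genes do, and their spliced RNA is often removed by nonsense-mediated decay, so that the intron product rather than the exons is the lasting output. Several microRNA hosts are inducible: MIR155HG and MIR3142HG, which carries miR-146a, are known NF-κB targets, MIR210HG carries the hypoxia-induced miR-210, and MIR34AHG carries the p53-induced miR-34a.

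Annotated small RNA genes lay inside 81 of the 84 microRNA hosts and all 28 snoRNA hosts. The microRNA hosts held 131 microRNA genes and 15 snoRNA genes, and the snoRNA hosts held 141 small RNA genes, 84 of them in SNHG14 alone. Of 132 microRNA genes, 123 had a mature sequence in the RefSeq table for GRCh38.p14, with the seed (bases 2 to 8) shown in capitals. The let-7 seed was carried by 7 of the tested hosts, among them MIRLET7IHG and MIR4500HG, which had the highest increases, and is shown for the following members.
hsa-let-7i-5p: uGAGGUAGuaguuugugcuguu
hsa-miR-4500: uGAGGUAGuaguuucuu
hsa-miR-4458: aGAGGUAGguguggaagaa
hsa-let-7f-5p: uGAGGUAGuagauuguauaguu
hsa-let-7b-5p: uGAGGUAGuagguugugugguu
These lie in MIRLET7IHG, MIR4500HG, MIR4458HG, MIRLET7A1HG and MIRLET7BHG, respectively, and differ after the seed.

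Sequences carried by the inducible hosts, and by MIR29B2CHG, are given next because the values of their hosts are described below. miR-221 and miR-222 share a seed in MIR222HG, miR-17 and miR-20a share one in MIR17HG, and miR-29b and miR-29c share one in MIR29B2CHG.
hsa-miR-146a-5p: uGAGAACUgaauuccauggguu
hsa-miR-210-3p: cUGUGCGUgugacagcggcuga
hsa-miR-155-5p: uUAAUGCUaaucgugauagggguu
hsa-miR-34a-5p: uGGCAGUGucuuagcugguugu
hsa-miR-31-5p: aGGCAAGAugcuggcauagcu
hsa-miR-221-3p: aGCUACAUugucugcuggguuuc
hsa-miR-222-3p: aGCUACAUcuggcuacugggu
hsa-miR-17-5p: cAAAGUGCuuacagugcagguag
hsa-miR-20a-5p: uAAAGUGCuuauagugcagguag
hsa-miR-29b-3p: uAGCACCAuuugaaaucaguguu
hsa-miR-29c-3p: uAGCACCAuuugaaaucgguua
The seeds of miR-146a, miR-210, miR-155, miR-34a and miR-31 were each found in 1 tested host.

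Start sites were compared as sequence. RefSeq promoter windows (250 bases before to 50 after the start) were found for 88 of the 112 members. A start with C as the first transcribed base, followed by 4 bases that are each C or T, was present in 5 of 20 windows of tested snoRNA hosts (25%), in 1 of 39 windows of tested microRNA hosts (2.56%) and in 1429 of all 35116 windows (4.07%), so most snoRNA hosts lack it, and the difference between classes was not tested. Shown are 30 bases from 10 before the start, gene strand, with the C and the pyrimidines after it in capitals.
SNHG4 (chr5:139274091-139274120, plus strand): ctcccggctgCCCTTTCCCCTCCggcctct
SNHG5 (chr6:85678714-85678743, minus strand): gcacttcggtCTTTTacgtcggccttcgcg
SNHG12 (chr1:28581854-28581883, minus strand): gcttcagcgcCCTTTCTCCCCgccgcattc
SNHG19 (chr16:2155339-2155368, minus strand): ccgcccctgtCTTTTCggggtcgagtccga
SNHG32 (chr6:31834906-31834935, plus strand): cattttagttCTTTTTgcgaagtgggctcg
These letters describe the annotated starts, which may differ from the starts used in these cells.

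Read depth was alike in the 6 libraries. Exon reads totalled 22264473 to 24624839 a library, and intron reads made up 7.16% to 7.46% of gene reads in shCtrl and 7.63% to 8.15% in shNFKBIZ. NFKBIZ itself had 1519, 1629 and 1674 exon reads in the shCtrl libraries and 474, 477 and 468 in shNFKBIZ, a log2 fold change of -1.78 ± 0.0581 (SE) with an adjusted p of 7.2e-17 in edgeR's quasi-likelihood test. Of 8 melanocyte lineage markers, 5 had fewer than 10 exon reads over the 6 libraries, with MLANA, SOX10 and S100B at 0, while MITF was expressed and fell (-0.77). Of 5 markers of dedifferentiated melanoma, NGFR had fewer than 10 reads over the 6 libraries, and the other four were expressed but moved apart, with SOX9 (1.27), EGFR (0.66) and AXL (0.17) higher and WNT5A (-1.20) lower after knockdown. Leukocyte, endothelial and epithelial markers (PTPRC, PECAM1 and EPCAM) stood at 0 to 5 reads a library. COL1A1, the fibroblast marker fixed for the check, was expressed and was lower after knockdown, so that the 4 markers of other cell types summed to 1640 to 1875 reads in shCtrl and 414 to 535 in shNFKBIZ, and their part in the results below was not tested. The study describes the repeats of each condition as independent experiments, and GEO's labels do not say what was repeated, so the p-values measure the spread between these libraries. In bulk RNA, fewer cells that express a gene and less RNA per cell cannot be told apart.

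Taken as classes, the snoRNA hosts were the more abundant. Their levels per length (TPM) summed to 947, 962 and 1023 in shCtrl and to 1220, 1337 and 1248 in shNFKBIZ. The microRNA hosts summed to 180, 190 and 198 TPM in shCtrl and to 180, 208 and 184 in shNFKBIZ. Thus the knockdown libraries all lay above the controls for the snoRNA hosts, and the ranges overlapped for the microRNA hosts.

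**Figure D1:**
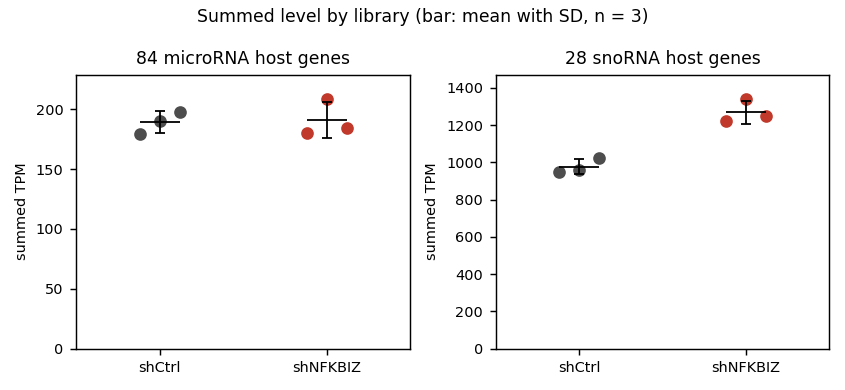
Summed TPM (vertical axis, from 0) of the 84 microRNA host genes and the 28 snoRNA host genes in each library (points), with the mean and SD of 3 libraries per group. The snoRNA host sums are 947 to 1023 in shCtrl and 1220 to 1337 in shNFKBIZ, and the microRNA host sums overlap.

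Detection divided the classes as well. Among the microRNA hosts, 23 had 0 exon reads in every library and 18 more had 1 to 9 over the 6 libraries, whereas no snoRNA host was at 0 and 1 (SNHG18, 2 reads) was under 10. A count of 0 allows up to 3 reads in 138331132, or 0.0217 CPM (reads scaled to the library total), which covers counting error only. After the filter on low counts, 35 of 84 microRNA hosts and 23 of 28 snoRNA hosts were tested, and 49 and 5 were not. MIR210HG, MIR4500HG and MIR181A1HG averaged fewer than 10 reads in 1 group, so these 3 passed mainly through the group where they were higher. Among hosts called below, MIR29B2CHG and SNHG9 also had 10 counts in every library of their higher group only.

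Across all 13843 genes tested on exon reads, 65.3% passed an adjusted p of 0.05 in edgeR's quasi-likelihood test, 32.5% higher and 32.8% lower, so a call at that level was the common outcome. With a change of at least 2-fold added, 8.96% were called (3.84% higher and 5.12% lower). Among the 1897 long noncoding RNA genes tested, 44.3% passed the adjusted p (30.2% higher and 14.1% lower), and 13.3% with the 2-fold limit (8.65% higher and 4.64% lower). The counts below are read against these shares.

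Of the 35 tested microRNA hosts, 12 rose, 11 fell and 12 did not pass, and 5 (2 higher, 3 lower) changed at least 2-fold. MIR210HG and MIR4500HG, both among these 5, passed the filter mainly through the group where they were higher. MIR29B2CHG, also among these 5, had 10 counts in every library of shCtrl only. With 10 counts required in every library, 2 microRNA hosts (1 higher, 1 lower) were called. The median log2 fold change of the 35 was 0.056, beside 0.0043 for all genes and 0.16 for long noncoding RNA genes. This median was unstable, at -0.050 without shCtrl replicate 2, 0.15 without shNFKBIZ replicate 2 and 0.18 on total gene reads. Of the 23 tested snoRNA hosts, 16 rose, 1 fell and 6 did not pass, and 0 reached 2-fold in edgeR or DESeq2. Their median log2 fold change was 0.35 and their values ran from -0.31 to 0.94. Library values did not overlap between the groups, in CPM, for 16 higher and 1 lower snoRNA host and for 13 higher and 14 lower microRNA hosts, against 68.7% of all genes (34.1% higher and 34.6% lower).

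**Figure D2:**
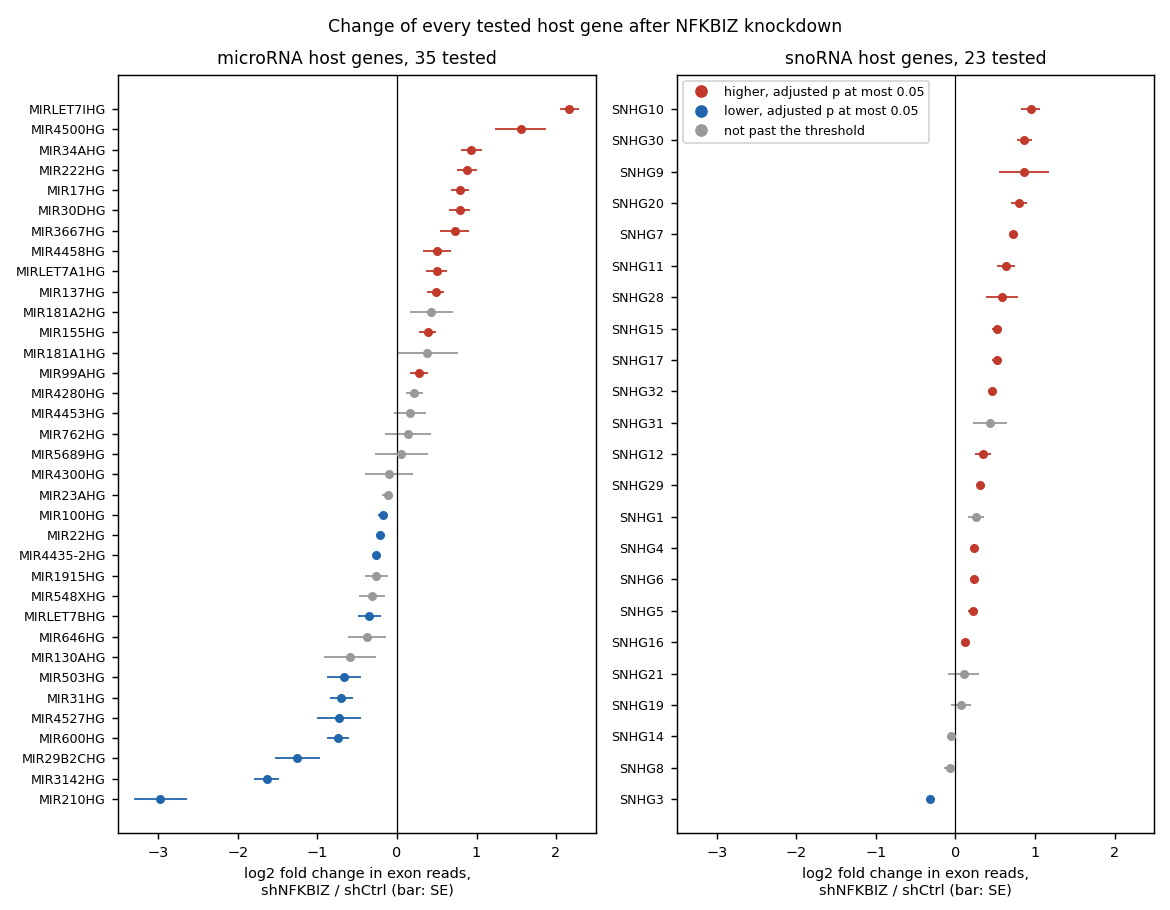
Log2 fold change in exon reads (horizontal axis, shNFKBIZ over shCtrl, bars are SE, 3 libraries per group) for each of the 35 microRNA hosts and 23 snoRNA hosts tested. The microRNA hosts run from -2.97 to 2.16 on both sides of 0, and the snoRNA hosts from -0.31 to 0.94 with 20 of 23 above 0.

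Among the 11 hosts listed as inducible, the strongest decrease was that of MIR210HG (chr11:565657-568457, minus strand), which carries miR-210 in an intron at chr11:568112-568133 for the 3p arm. It had 32, 47 and 48 exon reads in the shCtrl libraries and 3, 8 and 5 in shNFKBIZ, and the groups did not overlap. This was a 7.86-fold fall, or -2.97 ± 0.334 on the log2 scale (adjusted p = 7.7e-08, edgeR). MIR210HG passed the filter mainly through shCtrl, with a mean of 5.33 reads in shNFKBIZ, so its p-value is not read as support. Intron reads were too few to test, with 6 in shCtrl and 0 in shNFKBIZ.

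MIR3142HG (chr5:160438594-160487426, plus strand) carries miR-3142 in an intron and miR-146a, a microRNA that restrains NF-κB signalling, in an exon, with the 5p arm at chr5:160485372-160485393. Exon reads were 357, 452 and 397 in shCtrl and 97, 166 and 128 in shNFKBIZ, or -1.64 ± 0.159 on the log2 scale (adjusted p = 1.2e-05, edgeR). All shNFKBIZ libraries lay below all shCtrl libraries. Intron reads fell as well, from 108, 102 and 105 to 27, 21 and 28 (log2 fold change -2.14 ± 0.17, adjusted p = 5.4e-13), and the change in exon reads minus that in intron reads was 0.51 ± 0.216 (adjusted p = 0.068). In TPM it was the second most abundant microRNA host in shCtrl, at 27.6 ± 3.0 (SD, n = 3), and fell to 9.39 ± 2.6.

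Since IκBζ acts with NF-κB, promoter windows were searched on both strands for the NF-κB consensus of 10 bases. It was present in 4 of 39 windows of tested microRNA hosts (10.3%), in 4 of 20 windows of tested snoRNA hosts (20%) and in 11.3% of all windows. The MIR3142HG window has 1 match, 120 bases before a RefSeq start that lies inside the annotated gene, shown with the match in capitals.
MIR3142HG (chr5:160468121-160468150, plus strand): ggatctagaaGGGACTTTCCagagagggtt
MIR222HG (chrX:45770483-45770512, minus strand): gtgtgaggctGGGGTGTTCCctgttttaaa
MIR222HG is shown beside it because it holds a match as well and rose. The window of MIR155HG held no match. The hexamer CACGTG was in 2 of 20 windows of tested snoRNA hosts (10%), SNHG7 and SNHG30, in 0 of 39 of tested microRNA hosts and in 7.26% of all windows. ACGTG or GCGTG, of which ACGTG is contained in CACGTG, was in 80% of windows of tested snoRNA hosts, 43.6% of those of tested microRNA hosts, MIR210HG included, and 48.4% of all.

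Other inducible hosts were lower by smaller amounts. MIR31HG, a long host of miR-31 (intron, chr9:21512158-21512178) near the interferon gene cluster, had 115, 93 and 98 exon reads in the shCtrl libraries and 60, 65 and 65 in shNFKBIZ (log2 fold change -0.70 ± 0.144, adjusted p = 0.00021, edgeR). The groups did not overlap. MIR4435-2HG, the host with most reads among the microRNA hosts, went from 3873, 4214 and 3765 to 3342, 3392 and 3262 (-0.26 ± 0.0366, adjusted p = 2.2e-06), and its reads were 64.3% uniquely mapped, so its value is uncertain. With unique reads alone its call was kept. MIR22HG, host of miR-22, went from 754, 829 and 809 to 682, 749 and 660 (-0.21 ± 0.0602, adjusted p = 0.0045), and scaling by library size alone left it at -0.12 with the call lost. It overlaps WDR81 on the other strand, which rose (0.62 ± 0.0477).

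MIR34AHG, MIR222HG, MIR17HG and MIR155HG rose. MIR34AHG (chr1:9148011-9198906, minus strand) had 143, 128 and 127 exon reads in the shCtrl libraries and 215, 319 and 234 in shNFKBIZ, and its log2 fold change was 0.93 ± 0.133 (adjusted p = 1.2e-05, edgeR). MIR222HG, host of miR-221 and miR-222, which target cell cycle inhibitors, had 150, 145 and 174 against 241, 340 and 291 (0.88 ± 0.124, adjusted p = 8.5e-06). In both hosts the second shNFKBIZ library was the highest and the groups were apart. MIR17HG, the primary transcript of the proliferative miR-17-92 cluster with its 6 microRNAs in exons, rose from 119, 110 and 140 to 206, 216 and 227 (0.80 ± 0.112, adjusted p = 2e-06). MIR155HG, whose miR-155 lies in an exon at chr21:25573983-25574006 for the 5p arm, rose from 129, 123 and 125 to 151, 185 and 162 (0.39 ± 0.111, adjusted p = 0.0042).

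MIR23AHG had 624 to 714 exon reads in the shCtrl libraries and 572 to 702 in shNFKBIZ, with overlapping groups and a change of -0.12 ± 0.0703 on the log2 scale (adjusted p = 0.15, edgeR). MIR193BHG was under the filter. Over the 10 inducible hosts tested, 4 rose, 5 fell and 1 did not pass, with a median of -0.16, and over the other 25 tested microRNA hosts 8 rose, 6 fell and 11 did not pass, with a median of 0.14. On exon reads the known NF-κB targets thus moved in opposite directions, MIR3142HG down and MIR155HG up. On intron reads MIR155HG did not pass, with a value of -0.20 ± 0.161 (adjusted p = 0.35, edgeR).

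**Figure D3:**
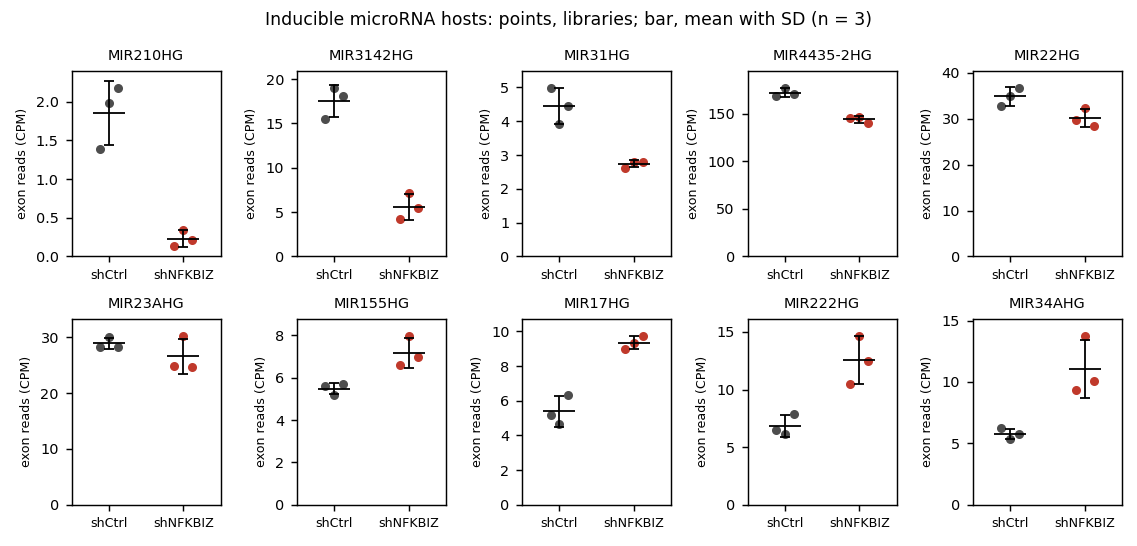
Exon reads in CPM (vertical axes, from 0, scaled separately) of the 10 tested inducible microRNA hosts in the shCtrl and shNFKBIZ libraries (points), with mean and SD (n = 3). MIR210HG and MIR3142HG are lower in all 3 knockdown libraries, MIR23AHG overlaps, and MIR155HG, MIR17HG, MIR222HG and MIR34AHG are higher in all 3.

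Outside the inducible list, hosts with the let-7 seed held the largest increases. MIRLET7IHG (chr12:62602752-62622213, plus strand), host of let-7i in an intron at chr12:62603691-62603712, had 67, 62 and 46 exon reads in the shCtrl libraries and 263, 255 and 275 in shNFKBIZ. That is 4.48-fold higher (log2 fold change 2.16 ± 0.119, adjusted p = 5.9e-13, edgeR), with no overlap. Its intron reads rose from 75, 86 and 80 to 192, 247 and 233 (1.39 ± 0.113, adjusted p = 1.05e-12). LINC01465, on the opposite strand and overlapping it, went from 5, 14 and 7 exon reads to 40, 21 and 32 (1.81 ± 0.348, adjusted p = 0.00011), and since both strands were counted the reads of the pair cannot be told apart where they overlap.

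MIR4500HG had few reads, 5, 9 and 9 in shCtrl and 22, 23 and 24 in shNFKBIZ (1.56 ± 0.32, adjusted p = 0.00021, edgeR), and more in introns, where 16, 15 and 18 became 76, 57 and 62 (1.90 ± 0.216, adjusted p = 4.7e-09). It was higher in every knockdown library by both kinds of read. On exon reads it passed the filter mainly through shNFKBIZ, so its exon p-value is not read as support. An unnamed gene on the other strand within its span had 347 intron reads over the 6 libraries, against 244 for MIR4500HG, and reads of the pair cannot be told apart where they overlap. The other hosts with this seed did not move together. MIR4458HG (0.50 ± 0.178, adjusted p = 0.017), MIRLET7A1HG (0.50 ± 0.13, adjusted p = 0.0022) and MIR99AHG (0.28 ± 0.11, adjusted p = 0.032) rose, whereas MIR100HG (-0.18 ± 0.0612, adjusted p = 0.021) and MIRLET7BHG (-0.35 ± 0.144, adjusted p = 0.041) fell. MIRLET7BHG lost its call in 8 of 16 alternatives, and its exon reads were 82, 107 and 82 against 74, 70 and 71.

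Among the hosts not listed as inducible, MIR29B2CHG, MIR600HG and MIR4527HG fell most. MIR29B2CHG, host of miR-29b and miR-29c in exons, which target extracellular matrix genes, had 25, 31 and 27 exon reads in the shCtrl libraries and 13, 13 and 9 in shNFKBIZ (-1.25 ± 0.28, adjusted p = 0.00051, edgeR). MIR600HG fell from 146, 166 and 119 to 81, 102 and 76 (-0.75 ± 0.138, adjusted p = 6.5e-05). The same strand there also holds STRBP, a gene for an RNA-binding protein, which fell from 1279, 1197 and 1193 to 690, 685 and 715 (-0.83 ± 0.0521, adjusted p = 6.3e-12), and some reads could belong to either gene. MIR4527HG went from 27, 23 and 24 to 12, 16 and 17 (-0.73 ± 0.271, adjusted p = 0.023), a call lost in 5 of 16 alternatives.

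Other microRNA hosts passed outside these groups. Of them, MIR30DHG (0.79), MIR3667HG (0.73) and MIR137HG (0.49) rose and MIR503HG (-0.67) fell. MIR137HG overlaps DPYD on the same strand, and MIR30DHG and MIR3667HG also overlap other genes, so some of their reads could belong to those genes. MIR181A1HG and MIR181A2HG, which share the miR-181 seed, stood at 0.38 and 0.43 on exon reads with adjusted p-values of 0.39 and 0.16, and they were mostly intronic, with 95% and 90.9% of gene reads in introns. On intron reads MIR181A1HG rose from 151, 114 and 148 to 232, 236 and 232 (0.67 ± 0.105, adjusted p = 2.8e-06).

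The snoRNA hosts with the largest increases were SNHG10, host of the small Cajal body RNA SCARNA13, and SNHG30, host of SNORD7, a guide for 2′-O-methylation. SNHG10 (chr14:95521943-95534889, minus strand) had 104, 90 and 81 exon reads in the shCtrl libraries and 179, 189 and 166 in shNFKBIZ, or 0.94 ± 0.118 on the log2 scale (adjusted p = 3.7e-07, edgeR). SNHG30 (chr17:35568050-35574900, plus strand) had 173, 174 and 134 against 284, 302 and 298 (0.87 ± 0.0947, adjusted p = 5.3e-08). In both the knockdown libraries lay above every control library.

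SNHG20 and SNHG9 followed. SNHG20, host of SCARNA16, rose from 147, 169 and 170 to 262, 311 and 283 (0.80 ± 0.0977, adjusted p = 2.7e-07, edgeR), and it overlaps SEC14L1 on the same strand, which fell slightly (-0.17 ± 0.0394, adjusted p = 0.00066). On reads across exon junctions alone SNHG20 stood at 0.28 with an adjusted p of 0.43. SNHG9 was low, with 9, 13 and 16 reads against 20, 32 and 18 (0.86 ± 0.317, adjusted p = 0.022), and its call was lost in 4 of 16 alternatives, in DESeq2 and on leaving out shCtrl replicate 1, shCtrl replicate 2 or shNFKBIZ replicate 2, where its lowest value was 0.57.

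Among the other snoRNA hosts that rose, SNHG7, host of SNORA17 pseudouridylation guides, had 1256, 1296 and 1356 reads in shCtrl and 2035, 2350 and 2163 in shNFKBIZ (0.73 ± 0.0555, adjusted p = 2.7e-09, edgeR). SNHG11 (0.64 ± 0.11), SNHG15 (0.52 ± 0.0583), SNHG17 (0.52 ± 0.0614) and SNHG32 (0.46 ± 0.0518) rose by less. SNHG29, the most abundant host of all at 250 ± 4.5 TPM in shCtrl (SD, n = 3), had 13688, 14385 and 13164 reads in shCtrl and 16976, 16881 and 17519 in shNFKBIZ (0.30 ± 0.0313, adjusted p = 2.1e-08). SNHG4 (0.23), SNHG6 (0.23), SNHG5 (0.22) and SNHG16 (0.12) passed with the smallest changes, and SNHG5 overlapped between groups in CPM. On junction reads SNHG4 (0.13, adjusted p = 0.57) and SNHG5 (0.11, adjusted p = 0.15, edgeR) did not pass. SNHG4 overlaps MATR3 on the same strand and SIL1 on the other, so some of its reads could belong to those genes. Of the hosts whose start is shown above, SNHG4, SNHG5, SNHG12 (0.35) and SNHG32 rose and SNHG19 did not pass (0.069 ± 0.131), and SNHG10, SNHG30, SNHG20 and SNHG7, which rose by more, have windows without that start.

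**Figure D4:**
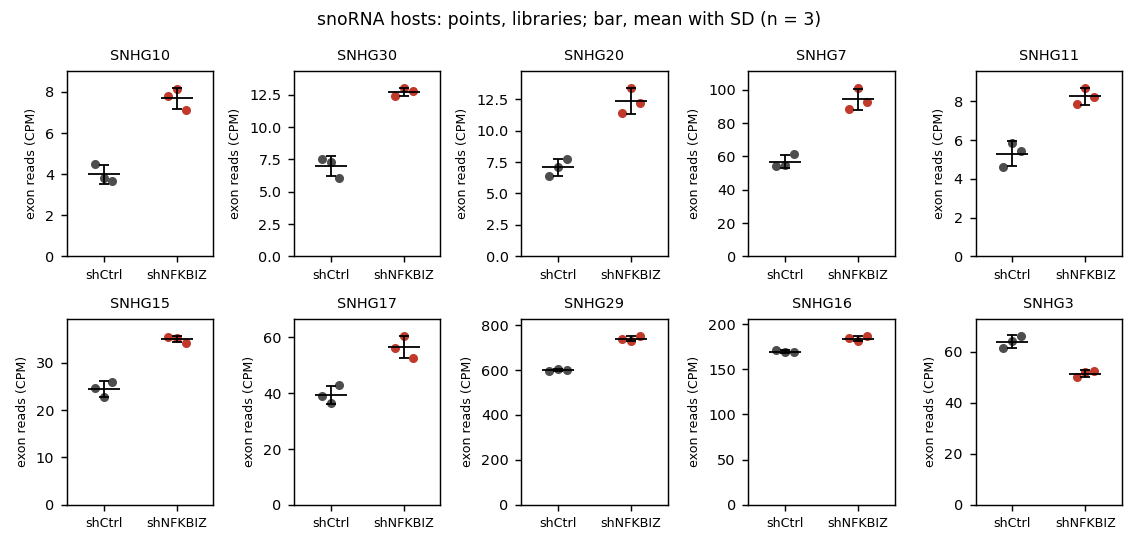
Exon reads in CPM (vertical axes, from 0, scaled separately) of 10 snoRNA hosts in the shCtrl and shNFKBIZ libraries (points), with mean and SD (n = 3). All 10 were picked from hosts that passed the adjusted p without overlap between groups, so their separation follows from the choice. Hosts with overlapping libraries are not drawn. In 9 of the 10 the knockdown libraries lie above the control libraries, and SNHG3 lies below. Of all genes tested, 34.1% were higher without overlap and 34.6% lower.

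SNHG3 was the single snoRNA host that fell. It carries SNORA73A and SNORA73B, which take part in 18S rRNA processing, and had 1416, 1525 and 1458 reads in shCtrl and 1146, 1203 and 1225 in shNFKBIZ (-0.31 ± 0.0459, adjusted p = 3.5e-06, edgeR). The groups did not overlap, and its intron reads were lower too (-0.83 ± 0.253, adjusted p = 0.0083). RCC1, which shares its strand and locus, had 3096, 3230 and 3098 reads in shCtrl and 3322, 3593 and 3364 in shNFKBIZ. On junction reads SNHG3 stood at -0.46 with an adjusted p of 0.18.

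The other 6 tested snoRNA hosts did not pass. SNHG14, host of the imprinted SNORD115 and SNORD116 arrays, had 1861 to 1998 reads in shCtrl and 1730 to 2013 in shNFKBIZ (-0.051 ± 0.048, adjusted p = 0.36, edgeR), and SNHG8 had 475 to 527 and 427 to 547 (-0.066 ± 0.0767, adjusted p = 0.46). The sign of both turned when libraries were scaled by size alone. SNHG14 overlaps SNRPN on the same strand (-0.19 ± 0.0521, adjusted p = 0.0025, edgeR) and UBE3A on the other (-0.20 ± 0.0400, adjusted p = 0.00018). SNHG8 overlaps PRSS12 on the other strand (0.60 ± 0.0524, adjusted p = 1.5e-09). Some reads of SNHG14 and SNHG8 could belong to those genes. SNHG1 stood at 0.26 ± 0.0975 (adjusted p = 0.063) and SNHG31 at 0.43 ± 0.214 (adjusted p = 0.081), while SNHG19 and SNHG21 were at 0.069 and 0.10. Uniquely mapped reads made up 5.12% of SNHG28, 51.9% of SNHG32, 59.7% of SNHG21 and 60.0% of SNHG5, so the values of these hosts are uncertain. SNHG28 (0.59 ± 0.206, adjusted p = 0.017, edgeR), SNHG32 and SNHG5 are among the hosts counted as risen. With unique reads alone SNHG32 kept its call.

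Intron reads ask whether the unspliced transcript moved with the spliced one. Across all 12119 genes tested on them, 38.8% passed the adjusted p (19.3% higher and 19.5% lower) and 6.6% also changed 2-fold (2.71% higher and 3.89% lower). Of 32 microRNA hosts tested, 9 rose and 5 fell, with 3 at 2-fold or more (MIRLET7IHG, MIR4500HG and MIR3142HG). Of 17 snoRNA hosts tested, 4 rose (SNHG20, SNHG17, SNHG4 and SNHG6) and 3 fell (SNHG3, SNHG27 and SNHG29). The median was 0.16 for the snoRNA hosts and -0.012 for the microRNA hosts, the latter running from -0.068 to 0.11 over the alternatives. Several hosts, SNHG1, SNHG8, SNHG15 and MIR23AHG among them, have no intron positions in the annotation.

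A direct test of the exon change minus the intron change was possible for 40 hosts, and 12 passed, 10 with exons ahead and 2 with introns ahead. Over all 11025 genes in this test, 28.9% passed, 12.4% with exons ahead and 16.5% with introns ahead. MIR34AHG had the largest positive difference, 1.07 ± 0.196 (adjusted p = 6.5e-06, edgeR): its intron reads were 68, 47 and 46 in shCtrl and 44, 68 and 45 in shNFKBIZ, a change of -0.13 ± 0.185. LNCTAM34A overlaps it on the other strand, with 195 intron reads over the 6 libraries. MIR222HG rose in exons by more than in introns (difference 0.58 ± 0.14). MIR155HG rose in exons only (difference 0.59 ± 0.197). Its intron reads were 55 to 66 in shCtrl and 52 to 59 in shNFKBIZ, a change of -0.20 ± 0.161 that did not pass (adjusted p = 0.35, edgeR). MIR17HG differed by -0.014 ± 0.159, its exons and introns having risen by like amounts (0.80 and 0.81).

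MIR31HG showed the opposite order. Its intron reads, 88.7% of its gene reads, rose from 580, 555 and 563 to 719, 771 and 690 (0.27 ± 0.0625, adjusted p = 0.0007, edgeR) while its exon reads fell, a difference of -0.97 ± 0.145 (adjusted p = 4.2e-08). With exon and intron reads summed, MIR31HG was higher after knockdown (0.21, adjusted p = 0.0037), so the direction given for this gene depends on which reads are counted. IFNE, which lies within its span on the same strand, had 21 to 32 exon reads in the shCtrl libraries and 25 to 44 in shNFKBIZ, and IFNA1, IFNA2 and IFNA8 had 0.

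In the let-7 hosts, exons ran ahead of introns for MIRLET7IHG (0.78 ± 0.172, adjusted p = 0.00019), MIRLET7BHG (0.65 ± 0.173, adjusted p = 0.0021) and MIRLET7A1HG (0.59 ± 0.211, adjusted p = 0.025; edgeR). For MIRLET7BHG this meant that introns fell by more, from 239, 246 and 245 reads to 120, 148 and 123 (-0.99 ± 0.097), than exons did. MIR4435-2HG also fell by more in introns (difference 0.17 ± 0.0572, adjusted p = 0.017).

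Among snoRNA hosts, SNHG30 and SNHG29 parted most. SNHG30 introns had 82, 62 and 54 reads in shCtrl and 59, 84 and 58 in shNFKBIZ, so that its difference was 0.94 ± 0.179 (adjusted p = 1.5e-05, edgeR). SNHG29, host of SNORD49A, SNORD49B and SNORD65, gained exon reads while its intron reads fell from 256, 287 and 242 to 203, 208 and 184 (-0.49 ± 0.0874), a difference of 0.79 ± 0.0894 (adjusted p = 2e-12). SNHG32 differed by 0.30 ± 0.082, and SNHG6 by -0.30 ± 0.0921, since its introns rose by more than its exons (0.53 against 0.23). SNHG7, SNHG17 and SNHG16 did not pass, at 0.36 ± 0.19, -0.042 ± 0.12 and 0.031 ± 0.144.

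**Figure D5:**
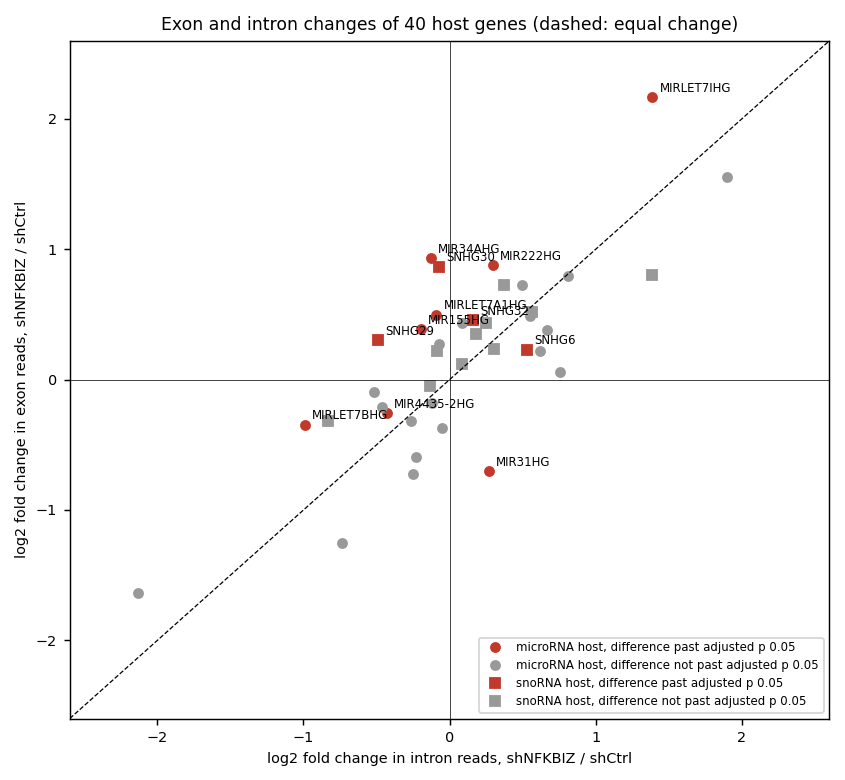
Log2 fold change in exon reads (vertical axis) against that in intron reads (horizontal axis) for the 40 hosts tested on both, with hosts whose difference passed an adjusted p of 0.05 in red and named, circles for microRNA hosts and squares for snoRNA hosts, and a dashed line of equal change. MIR31HG lies below the line (-0.70 in exons, 0.27 in introns), and MIR34AHG, SNHG30 and SNHG29 lie above it.

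Reads spanning an exon junction come from spliced RNA only. On these, 20 snoRNA hosts could be tested, of which 12 rose, and the 2 with a negative value (SNHG3 and SNHG8) did not pass, beside 54.9% of genes called, 27% of 10622 higher and 27.9% lower. SNHG7 reached 0.89, and SNHG30, SNHG9 and SNHG11 were at 1.13, 1.13 and 1.12. Of the 5 microRNA hosts with enough such reads, MIR22HG (-1.03, adjusted p = 0.00039), MIR548XHG (-0.78, adjusted p = 0.036) and MIR100HG (-0.36, adjusted p = 0.044) were lower, and MIR4435-2HG stood at 0.0075.

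Other snoRNA hosts were compared from a list outside the name rule. Of 5 genes tested from the list of long noncoding hosts, GAS5 rose from 3118, 3273 and 3521 exon reads to 5494, 5637 and 5694 (0.75 ± 0.0518, adjusted p = 1.3e-08, edgeR). EPB41L4A-AS1 rose by 0.76 and DANCR fell (-0.15), so that 3 rose and 1 fell in all. The list includes SNORD3A, a snoRNA gene rather than a host, which did not pass (-0.10, adjusted p = 0.73, edgeR). Of 26 protein-coding snoRNA hosts, 13 rose and 5 fell with a median of 0.094, led by NOP56 (0.72), a core snoRNP protein, and PPAN (0.39), with EIF4A1 lowest (-0.48). Of 23 protein-coding microRNA hosts tested, 11 rose and 8 fell with a median of 0.072, from SREBF1 (-1.33), host of miR-33b and a regulator of lipid synthesis, to PANK1 (0.74), host of miR-107.

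Genes that act on the products were spread in both directions. Of 18 snoRNP core and assembly factors, 9 rose and 3 fell, with NOP56 and GAR1 (0.47) highest and the assembly factor ZNHIT6 lowest (-0.86). Of 17 nonsense-mediated decay factors, 9 rose and 3 fell (UPF3A 0.48, SMG9 0.44, SMG1 -0.30). Of 10 microRNA processing genes, 5 rose and 3 fell, with AGO2 (0.44), which binds mature microRNAs, and DGCR8 (0.38) highest and XPO5 (-0.56), which exports precursor microRNAs, lowest.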

How the data were processed

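Total RNA from 6 libraries (3 shCtrl, 3 shNFKBIZ) had been sequenced as read pairs. The authors mapped reads to hg38 with Ensembl 109 genes in CLC Genomics Workbench and deposited, per gene, total exon, total intron, unique and junction read counts, with reads of up to 10 hits kept, pairs counted once and both strands counted. From these counts, edgeR 4.0.16 (R 4.3.3) was run on all genes (filterByExpr, TMM, robust quasi-likelihood F test, 2-sided, Benjamini-Hochberg over all genes tested), separately for exon and intron reads, with the group as the only term. Calls at an adjusted p of at most 0.05 with a 2-fold change, and at the adjusted p alone, were both counted. The study's limit on the absolute difference in expression was not applied. Exon minus intron was an interaction term with the library as a block. SE is the log2 fold change divided by the square root of F. No library repeated another: replicate pairs differed beyond counting noise (chi-square per degree of freedom 1.71 to 4.45).

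Named hosts were the inducible list, the 5 largest changes per class and direction in exon reads, and the 5 largest called exon minus intron differences per class, and other lists gave up to 3 genes each, those past the adjusted p with the largest changes. Hosts given beyond these (the others of the let-7 seed, those called on junction or intron reads, those not called and the genes that overlap a host) were chosen after their values were seen. The members and the gene lists were chosen with earlier results of these data known. On simulated counts for the exon comparison (13697 genes), 98% of 100 genes changed by 1 on the log2 scale and 61% of 100 changed by 0.5 were recovered, with 6 false calls. For intron reads (11920 genes) these were 96% and 44%. For exon minus intron, 82.5% of 200 genes changed by 1 were recovered. The changed genes were drawn only from genes above a mean read count, and all genes were given 1 fixed dispersion. These shares therefore do not cover hosts with few reads or noisier counts. Small RNA positions came from the annotation deposited with the counts, and the exons of the hosts from GENCODE v44. In GENCODE v44, 111 members were found by gene ID, 107 with identical coordinates. Sequences came from RefSeq GRCh38.p14. Alternatives were other scalings, filters, tests and read classes, and leaving out each library. Calls on junction reads, and the counts at any fold change under each alternative, were added after the data had been seen.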

Additional observations from a re-analysis of the deposited data

How the results depend on the processing

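Counts of called hosts depended most on the fold limit and the reads counted. With an adjusted p of at most 0.05 and a 2-fold limit, 5 microRNA hosts, 0 snoRNA hosts and 1241 of all genes were called on exon reads, and without the fold limit 23, 17 and 9039. On intron reads these were 3, 1 and 800 with the limit and 14, 7 and 4698 without. On junction reads the counts were 1, 3 and 700 with the limit, and 3 microRNA hosts and 5834 of all genes without, where fewer genes could be tested. A minimum of 10 counts in every library, which removes genes low in 1 group, left 2 microRNA hosts on exon reads, and 0 snoRNA hosts and 466 of all genes on intron reads. With library size alone 1 snoRNA host passed the 2-fold rule, with no filter 1 on exon reads and 2 on intron reads, and with unique reads 0 on intron reads. DESeq2 called 2874 of all genes on intron reads at any fold. The microRNA host median was -0.36 on junction reads, with 5 hosts tested. The cause of the changes with scaling and tool was not tested.

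Leaving out 1 library gave 0 to 2 snoRNA hosts on exon reads (2 without shNFKBIZ replicate 3), 3 to 6 microRNA hosts on intron reads (6 without shCtrl replicate 2) and 1 to 3 snoRNA hosts on intron reads (3 without shCtrl replicate 1). SNHG8 ran from -0.17 to 0.0068 on exon reads, and was called without shNFKBIZ replicate 2. MIR23AHG was called as well without that library (-0.22). On intron reads MIR34AHG ran from -0.33 to 0.078 and SNHG30 from -0.23 to 0.12, with the sign of SNHG30 also turned without shNFKBIZ replicate 3 (0.018). Their exon calls were kept in every alternative run.

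Signs also turned for MIR31HG with total gene reads (0.21), MIR4435-2HG with junction reads (0.0075), SNHG14 with library size alone (0.038) and junction reads (0.051), and SNHG8 with library size alone (0.024). That scaling moved the median of all genes from 0.0043 to 0.094 and that of the snoRNA hosts from 0.35 to 0.44, and the split of exon calls at any fold from 4496 higher and 4543 lower to 5659 and 3651. Of 781 repeats of single named genes, 730 kept their direction and side of the threshold, 34 lost the call, 8 gained one and 9 changed sign.

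Same-numbered libraries did not deviate together (correlations 0.029, 0.096 and 0.037), so the numbers were not taken as pairs. With the replicate number as a block, 5 microRNA hosts, 0 snoRNA hosts and 1244 of all genes passed the 2-fold rule on exon reads, and 3, 1 and 801 on intron reads.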

Other observations

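The small RNAs inside the hosts have rows of their own in the tables. Of 287 such rows, 21 held at least 1 exon read over the 6 libraries and 5 held 10 or more. SNORA73B in SNHG3 had 23, 24 and 21 reads in shCtrl and 18, 25 and 25 in shNFKBIZ. SNORA71B in SNHG17 had 10, 16 and 15 against 16, 14 and 20, and SCARNA13 in SNHG10 had 5, 9 and 2 against 3, 4 and 0. MIR663A in MIR663AHG had 6, 10 and 5 against 14, 10 and 8. SNORA74A in SNHG4 had 1, 1 and 2 against 5, 0 and 3. The read counts of the groups overlapped in each of the 5. Mature microRNAs were not measured.

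MIR583HG, untested on exon reads, had 0, 30 and 0 intron reads in shCtrl and 42, 46 and 28 in shNFKBIZ, so that 1 control library resembled the knockdown libraries and the others held none (log2 fold change 1.85 ± 1.13, adjusted p = 0.28, edgeR).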
